A study of Mus musculus with 17 samples.

Results

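The genes of oxidative phosphorylation that are encoded in the nucleus were described in single cells of the mouse hypothalamus. They were chosen by symbol from the merged count table, as the genes whose symbol starts with Nduf, Uqcr or Atp5, or with Cox followed by a number from 4 to 8. The rule found 86 of 23284 genes, of which 42 start with Nduf, 8 with Uqcr, 17 with Atp5 and 19 with Cox4 to Cox8. Of the 86, 78 encode structural subunits. The other 8 are the assembly factors Ndufaf1 to Ndufaf4, the assembly-related genes Atp5sl and Atp5s, the paralog Ndufa4l2, and Cox4nb, a subunit gene of a membrane protein complex of the endoplasmic reticulum that matches the symbol only. Ndufa4 was counted with complex IV, where its protein is found. By complex, 41 members belong to complex I, 8 to complex III, 20 to complex IV and 16 to complex V, and Cox4nb to none.

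The study used Drop-seq, which captures polyA RNA of single cells in droplets and counts molecules by unique tags (unique molecular identifiers, UMIs). The hypothalamus of B6D2F1 mice, the hybrid of a C57BL6 mother and a DBA2 father, was dissected and dissociated into single cells. Of the 8 mice, 5 were fed normally and 3 were deprived of food for 24 hours; the labels give neither age nor sex. The 17 libraries of these mice fall into 5 batches: normal replicates 1 and 2 were in batch 0, normal replicate 3 and food-deprived replicate 1 in batch 1, normal replicate 4 and food-deprived replicate 2 in batch 2, normal replicate 5 in batch 3, and food-deprived replicate 3 in batch 4. Mice are written N1 to N5 (normal) and FD1 to FD3 (food-deprived) below.

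Oxidative phosphorylation takes place in the inner membrane of mitochondria. Complexes I, III and IV pass electrons from NADH to oxygen and pump protons across the membrane, and complex V, the ATP synthase, uses the proton gradient to make ATP. Neurons are known to spend much of their ATP on restoring ion gradients, whereas several glial and vascular cell types rely more on glycolysis. Some subunits of complex IV exist as pairs of isoforms, a common one and one known from heart and skeletal muscle, testis or lung. Subunits encoded in mitochondrial DNA were not used here.

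Upstream sequences were read for members that differ in how widely they were found below. Each is 300 bases around the annotated start of the gene, from RefSeq with build GRCm38.p6, written 5′ to 3′ on the strand of the gene, with CG dinucleotides in capitals. Cox6b1 and Cox7a2, the common isoforms, are followed by Cox6b2 and Cox7a1, their restricted counterparts, and Ndufc2, the complex I member that was highest in tanycytes. The regions are chr7:30626065-30626364 on the minus strand for Cox6b1, chr7:4753045-4753344 on the minus strand for Cox6b2, chr9:79759804-79760103 on the minus strand for Cox7a2, chr7:30183921-30184220 on the plus strand for Cox7a1 and chr7:97399753-97400052 on the plus strand for Ndufc2.
Cox6b1: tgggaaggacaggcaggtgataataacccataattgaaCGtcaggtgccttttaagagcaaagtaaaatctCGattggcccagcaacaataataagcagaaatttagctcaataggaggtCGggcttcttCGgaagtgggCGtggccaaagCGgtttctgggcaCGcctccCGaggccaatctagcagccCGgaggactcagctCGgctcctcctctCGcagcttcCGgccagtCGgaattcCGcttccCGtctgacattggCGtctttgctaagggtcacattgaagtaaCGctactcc
Cox6b2: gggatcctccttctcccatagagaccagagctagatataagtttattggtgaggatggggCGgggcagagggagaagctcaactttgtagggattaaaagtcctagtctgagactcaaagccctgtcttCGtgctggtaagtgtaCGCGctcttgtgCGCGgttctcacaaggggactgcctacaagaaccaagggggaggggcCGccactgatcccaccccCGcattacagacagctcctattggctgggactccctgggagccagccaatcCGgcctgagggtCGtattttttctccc
Cox7a2: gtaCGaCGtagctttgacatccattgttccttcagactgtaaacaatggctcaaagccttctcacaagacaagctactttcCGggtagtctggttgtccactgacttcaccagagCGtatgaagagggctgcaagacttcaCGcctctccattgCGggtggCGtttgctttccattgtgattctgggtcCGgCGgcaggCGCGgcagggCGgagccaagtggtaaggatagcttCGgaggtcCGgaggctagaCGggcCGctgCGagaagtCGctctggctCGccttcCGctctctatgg
Cox7a1: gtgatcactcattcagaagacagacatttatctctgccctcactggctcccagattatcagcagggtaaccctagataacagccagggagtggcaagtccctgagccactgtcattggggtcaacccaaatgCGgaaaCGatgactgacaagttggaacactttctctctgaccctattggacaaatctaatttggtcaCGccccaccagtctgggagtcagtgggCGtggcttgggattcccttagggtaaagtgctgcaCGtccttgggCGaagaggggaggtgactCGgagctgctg
Ndufc2: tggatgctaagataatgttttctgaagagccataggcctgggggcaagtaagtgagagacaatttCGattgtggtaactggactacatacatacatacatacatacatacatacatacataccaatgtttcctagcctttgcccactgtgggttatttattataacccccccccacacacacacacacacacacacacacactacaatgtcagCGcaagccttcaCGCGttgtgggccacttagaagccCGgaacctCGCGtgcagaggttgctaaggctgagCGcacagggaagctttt
The common isoforms held 17 (Cox6b1) and 20 (Cox7a2) CG dinucleotides, the restricted ones 10 (Cox6b2) and 7 (Cox7a1), and Ndufc2 held 8. The table gave 77 such sequences for 71 members, and 15 members, among them Cox4i1, Cox4i2, Cox6a2 and Ndufa4l2, had no entry. The median was 19 CG dinucleotides over the sequences of members and 7 over all 32851 sequences of the table. Motifs were searched on both strands as exact letters, and none of the 3 contains another. CCGGAAG, the core bound by ETS factors, was found in 15 of the 77 (19.5%) against 8.86% of all sequences of the same length, and GCGCATGCG, the motif of NRF1, in 9 of them (11.7% against 1.75%). With a further C at its end, as first searched, the NRF1 motif was found in 6 (7.79% against 0.971%). CCAAT was found in 33 (42.9% against 37.4%). These are matches of letters and not sites of binding. The ETS and NRF1 motifs contain CG and CCAAT does not, and the sequences compared were not matched for CG content. The part of CG content in these shares was not tested.

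The 14276 annotated cells that could be placed in a library held 46904254 UMIs, and mice ranged from 290861 UMIs in 129 cells (N1) to 12570644 UMIs in 3639 cells (FD1). The authors' 46 cluster names were merged into classes by their stem. The marker sets of 12 classes were each highest in the class of that name: GABA and Glu neurons, MO (myelinating oligodendrocytes), IMO (newly formed oligodendrocytes), OPC (oligodendrocyte precursors), Astro (astrocytes), Tany (tanycytes), Ependy (ependymal cells), Epith (which carried endothelial markers), Micro (microglia), Macro (macrophages) and POPC. Values per class are over mice with at least 20 cells of the class and values per cluster over mice with at least 10. Levels are CPM, the UMIs of a gene scaled to the total of the class in a mouse; Drop-seq counts the 3′ ends of transcripts, so no scaling by gene length was made. Gapdh, a glycolytic gene, was near absent in 9 libraries (4.36 to 8.53 CPM) and not in the other 8 (151 to 811 CPM). These are called low-Gapdh and high-Gapdh libraries, and 3 mice (N4, FD1 and FD2) have both kinds. Of the barcode sequences, 120 occurred in more than 1 library and 15 of these in libraries of different mice.

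The members made up 1511032 UMIs, 3.22% of all UMIs in annotated cells and 2.62 to 3.55% in the 17 libraries. Of the 86 genes, 85 had at least 10 UMIs and 79 had over 1000, and Cox8c, a testis isoform, had 2. Complex I, which takes electrons from NADH, held 39.2% of the UMIs of members in its 36 structural members, complex III 9.9% in 8, complex IV 27.7% in 19 and complex V 21.8% in 15. Per gene the complexes lay close together: the median level was 355 CPM in complex I, 423 CPM in complex III, 392 CPM in complex IV and 472 CPM in complex V.

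The most abundant members were subunits of complex IV, the oxidase that reduces oxygen. Over all annotated cells Cox4i1, its common subunit 4 isoform, stood at 1474 CPM, Cox6c at 1024 CPM and Ndufa4 at 963 CPM. The highest members of complex V were Atp5b, the catalytic beta subunit, at 944 CPM, Atp5a1, the alpha subunit, at 698 CPM, and Atp5j, a subunit of the stalk, at 683 CPM. In complex I the accessory subunits Ndufa13 (652 CPM), Ndufc2 (572 CPM) and Ndufa3 (539 CPM) led. In complex III the small subunits Uqcrq (528 CPM), Uqcr11 (479 CPM) and Uqcrh (476 CPM) led. Common and restricted isoforms differed widely in level: Cox6a1 stood at 853 CPM and Cox6a2 at 26.9 CPM, Cox7a2 at 720 CPM and Cox7a1 at 7.33 CPM, and Cox7b at 638 CPM and Cox7b2 at 2.56 CPM.

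Among the named classes, neurons gave the members the largest share of their transcripts and microglia the smallest; the unnamed cells (zothers) stood at 4.07 ± 0.342% (n = 6), above all neurons in 6 of 6 mice. The share was 3.89 ± 0.302% (SD, n = 7 mice) in all neurons, with 3.84 ± 0.289% in GABA (n = 7) and 3.98 ± 0.354% in Glu (n = 6). It was 1.47 ± 0.171% in Micro (n = 5), where the lowest mouse stood at 1.24%, the median mouse at 1.56% and the highest at 1.65%. The lowest mouse of all neurons stood at 3.48% and the highest at 4.30%, above every mouse of the other named classes given here, Glu and GABA apart. Neurons were above MO and OPC in 7 of 7 mice with both classes, above Astro in 6 of 6 and above Micro in 5 of 5.

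Between these ends, Astro (2.84 ± 0.159%, n = 6), IMO (2.79 ± 0.227%, n = 5) and OPC (2.66 ± 0.179%, n = 7) came next in the order of means. Epith (2.38 ± 0.111%, n = 6), Tany (2.35 ± 0.135%, n = 6), Ependy (2.35 ± 0.111%, n = 6), MO (2.27 ± 0.132%, n = 8) and Macro (2.13 ± 0.108%, n = 3) followed. Astro was above OPC, MO, Tany, Ependy and Epith in 6 of 6 mice each, and above IMO in only 3 of 5. The means of Epith, Tany and Ependy differed by less than their spread over mice, and Glu was above GABA by less than the spread of either. All 4 complexes followed the ends of this order: complex I took 1.59% of UMIs in all neurons and 0.540% in Micro, complex III 0.372% and 0.150%, complex IV 1.07% and 0.440%, and complex V 0.860% and 0.341%. The share is one of the captured transcripts of a class and not an amount per cell. The median cell held 3930 UMIs in all neurons, 1548 in Micro and 1300 in Astro, and the part of depth in the order was not tested.

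**Figure D1:**
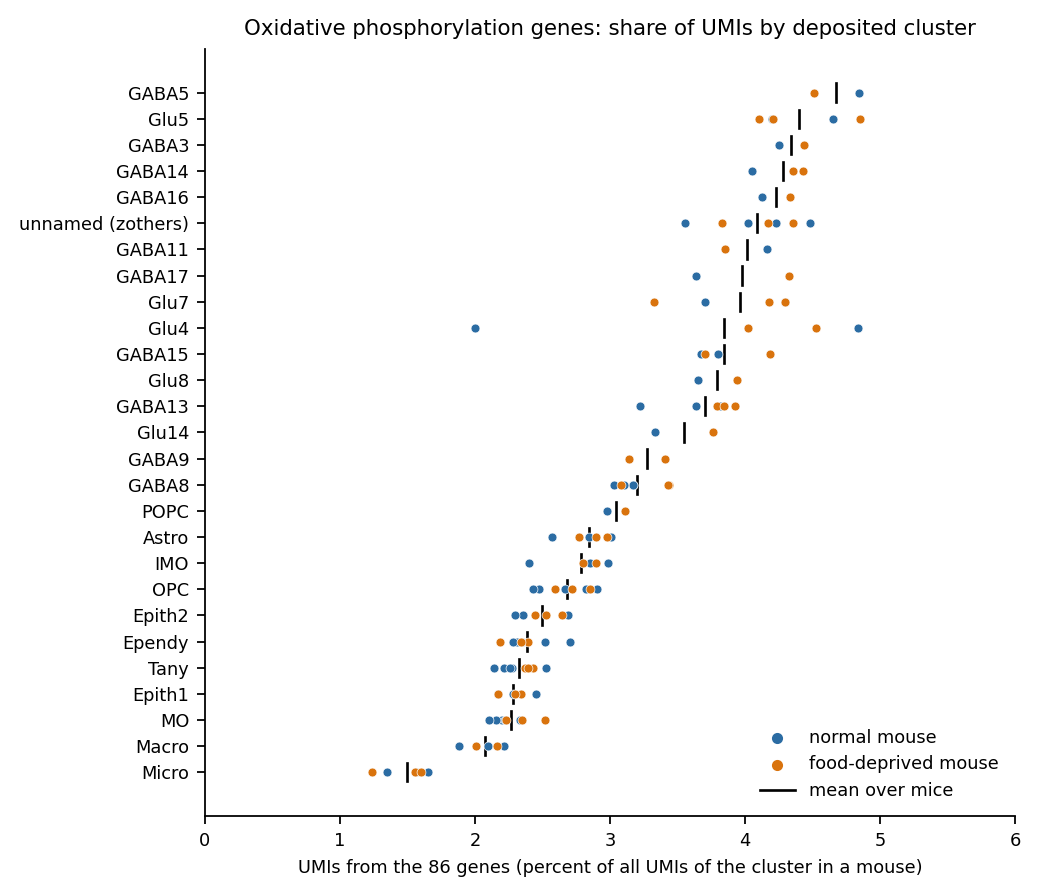
Percent of UMIs from the 86 members in the deposited clusters with at least 2 mice, ordered by their mean; points are mice, coloured by feeding state, and the vertical line is their mean. Micro is the lowest cluster, and the named neuronal clusters run from GABA8 at 3.20% upward.

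The clusters inside the neuronal classes spread over a range of their own. Micro (1.50%, n = 6 mice), Macro (2.07%) and MO (2.27%) were the lowest clusters. The lowest neuronal cluster was GABA8 at 3.20 ± 0.165% (n = 7), followed by GABA9 at 3.27% (n = 2). At the upper end among clusters with several mice stood Glu5 at 4.40 ± 0.328% (n = 5) and GABA5 at 4.68% (n = 2). Glu4 was the most variable of them at 3.85 ± 1.28% (n = 4), since N4, with 13 cells, stood at 2.00% and the highest mouse at 4.84%. POPC (3.05%, n = 2) lay between OPC (2.68%) and the lowest neuronal clusters.

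Most members followed the order of the shares. Of the 79 members that reached 50 CPM in a class, 46 had their highest class mean in Glu and 17 in GABA, and 59 had their lowest in Micro and 8 in Macro. The median ratio between the highest and the lowest class mean was 3.08. Cox4i1 stood at 1672 ± 208 CPM in all neurons (n = 7), from 1337 to 1956 CPM in single mice, and at 871 ± 128 CPM in Micro (n = 5), from 759 to 1046 CPM. Its values in neurons and microglia did not overlap. The lowest class mean of Cox4i1 was that of OPC, at 862 ± 145 CPM (n = 7), with values that overlapped those of Micro. Cox4i1 thus kept the upper end of the order and departed from it below. Atp5b stood at 1123 ± 184 CPM in all neurons and 444 ± 69.1 CPM in Micro. Ndufab1, the acyl carrier protein that also sits in complex I, had a ratio of 6.78 between GABA (141 CPM) and Micro (20.8 CPM), Ndufs5 a ratio of 5.58, Atp5sl 5.40, Atp5g1 5.35 between GABA (505 CPM) and Micro (94.5 CPM), Cox7c 5.11 and Ndufaf3 4.94. Ndufab1, Atp5g1 and Cox7c also differed between the kinds of library (below), and the classes do not hold the same mice and libraries, so the part of the kind of library in these ratios cannot be told apart from that of the class.

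Cox6a1 and Ndufc2 had their highest class mean outside neurons, while Ndufa4 kept the ends of the order and departed from it between them. Cox6a1, the common subunit 6a, had its highest class mean in MO at 992 ± 137 CPM (n = 8) and stood at 398 ± 83.6 CPM in Micro (n = 5). Glu stood at 919 ± 106 CPM for Cox6a1 (n = 6), below MO by less than the spread of either, and their values overlapped. Ndufa4 stood at 1245 ± 166 CPM in all neurons (n = 7) and at 1001 ± 93.1 CPM in OPC (n = 7). The 3 classes MO (523 ± 62.8 CPM, n = 8), Tany (423 ± 42.9 CPM, n = 6) and Micro (400 ± 100 CPM) were all lower than either. Astro, whose share was above that of OPC, stood below OPC for Ndufa4, at 709 ± 95.6 CPM (n = 6). Ndufc2, an accessory subunit of the membrane arm of complex I, was highest in Tany: N3 stood at 1101 CPM, N4 at 1006 CPM, N5 at 852 CPM, FD1 at 913 CPM, FD2 at 1218 CPM and FD3 at 966 CPM. All 6 lay above the highest mouse in Astro (610 CPM) and in Ependy (445 CPM), and above neurons at 664 ± 71.7 CPM. In the annotation Ndufc2 overlaps a processed pseudogene, Gm16053, on the same strand, and reads from these 2 could not be told apart here.

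The restricted isoforms were found in few classes each. Cox6a2, the subunit 6a isoform known from heart and skeletal muscle, was highest in the cluster GABA16, where N5 stood at 516 CPM and FD2 at 484 CPM. There it took 35.7 ± 0.566% of the UMIs of Cox6a1 and Cox6a2 together (n = 2 mice, with 16 and 22 cells). In Glu5 it stood at 138 CPM in N3, 127 CPM in N5, 110 CPM in FD1, 149.5 CPM in FD2 and 276 CPM in FD3, and in Glu4 at 308 CPM in N3, 35.1 CPM in N4, 270 CPM in FD1 and 111 CPM in FD2. The values within each of these clusters varied more than 2-fold between mice, and the 2 mice of GABA16 lay above all mice of Glu4 and Glu5. Among non-neuronal classes Cox6a2 was highest in Tany, with N3 at 98.5 CPM, N4 at 116 CPM, N5 at 40.6 CPM, FD1 at 34.2 CPM, FD2 at 143 CPM and FD3 at 107 CPM.

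Ependymal cells, which line the same ventricle as tanycytes, held 1 UMI of Cox6a2 among 1754026 UMIs, against 170 among 1982520 in Tany. The ratio of these levels was 150.0, with an exact 95% interval from 26.6 to 5980 that covers counting error only. IMO held 0 among 613743, which allows up to 4.89 CPM. Astro stood at 7.21 ± 6.83 CPM (n = 6), and its highest mouse, at 18.8 CPM, lay below the lowest of Tany. Neuron markers were also seen outside neurons: 5 of them together stood at 11200 ± 1020 CPM in all neurons, 514.5 ± 319 CPM in Tany (280 to 1139 CPM), 1212 ± 767 CPM in Astro (725 to 2687 CPM) and 237 ± 57.6 CPM in Ependy (183 to 339 CPM), and none of the 5 was at 0 in these classes. The part of RNA from neurons in the Cox6a2 of Tany was not tested. Cox6a2 overlaps Itgad, which lies on the opposite strand; Itgad stood at 83.6 ± 56.8 CPM in MO and had 0 UMIs in Tany, GABA16 and Glu5 and 1 UMI in Glu4. Within Tany, Cox6a2 stood at 113 ± 86.3 CPM in low-Gapdh libraries and 55.7 ± 45.6 CPM in high-Gapdh libraries, ranges that overlap.

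Cox6b2, the subunit 6b isoform known from testis, was higher in several glial and ventricular classes than in neurons. It stood at 71.3 ± 27.9 CPM in Tany (n = 6), 68.0 ± 20.2 CPM in IMO (n = 5), 52.8 ± 21.3 CPM in Astro (n = 6), 39.1 ± 10.9 CPM in OPC (n = 7) and 37.0 ± 8.98 CPM in Ependy (n = 6). Neurons held little of it: Glu stood at 4.41 ± 2.22 CPM (n = 6), and the highest mouse in Glu, at 6.80 CPM, lay below the lowest mouse of each of those 5 classes. MO, the glial class with the most cells, stood at 9.10 ± 6.62 CPM (n = 8), and its values overlapped those of Glu. Epith, at 27.2 ± 20.4 CPM (n = 6), and Macro, at 27.2 ± 11.8 CPM (n = 3), lay below the mean of Ependy and overlapped it. The order from Tany to Astro did not exceed the spread over mice.

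Cox4i2, the subunit 4 isoform known from lung and from cells that sense oxygen, and Ndufa4l2, a paralog of Ndufa4 known as a gene induced by low oxygen, were highest in the vascular classes. Cox4i2 stood at 82.9 ± 35.1 CPM in Epith (n = 6), and at 96.3 ± 49.9 CPM in Epith2 and 68.9 ± 39.5 CPM in Epith1, which overlapped. Macro stood at 27.8 ± 27.9 CPM (n = 3). Ndufa4l2 in Epith2 stood at 421 CPM in N3, 350 CPM in N4, 128 CPM in N5, 292 CPM in FD1, 320 CPM in FD2 and 403 CPM in FD3. In Epith1 it stood at 174, 184, 37.6, 194, 169 and 153 CPM in the same order of mice, lower in each mouse, with N5 lowest in both clusters. Ndufa4l2 took 39.7 ± 10.7% of the UMIs of Ndufa4 and Ndufa4l2 together in Epith2 and 18.4 ± 6.72% in Epith1. It overlaps Shmt2 on the opposite strand. Markers of mural cells, which wrap vessels, summed to 9581 ± 911 CPM in Epith2 and 4381 ± 625 CPM in Epith1 (6 markers), endothelial markers to 11070 ± 2200 CPM and 16890 ± 1740 CPM (5 markers), and fibroblast markers to 2601 ± 1070 CPM and 154 ± 115 CPM (4 markers). No marker of these sets was at 0 in either cluster, and the part of mural cells and fibroblasts in the values of these isoforms was not tested.

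The remaining isoforms were rarer. Cox7a1, the subunit 7a isoform of heart and skeletal muscle, was highest in Ependy, where N3 stood at 12.4 CPM, N4 at 85.4 CPM, N5 at 53.3 CPM, FD1 at 39.7 CPM, FD2 at 40.8 CPM and FD3 at 48.5 CPM. Tany stood at 21.6 ± 9.11 CPM, and the values of Tany and Ependy overlapped. Cox8b, the muscle isoform of subunit 8, was highest in Astro at 8.81 ± 5.18 CPM and had 31 UMIs in all cells, and Cox7b2, a testis isoform, was highest in Astro at 12.8 ± 6.28 CPM with 120 UMIs in all. Both were seen in all 6 mice of Astro, at 14 and 26 UMIs in sum. Cox7a2l, which is known to act in assembling complexes III and IV into supercomplexes, was a common gene at 262 CPM.

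**Figure D2:**
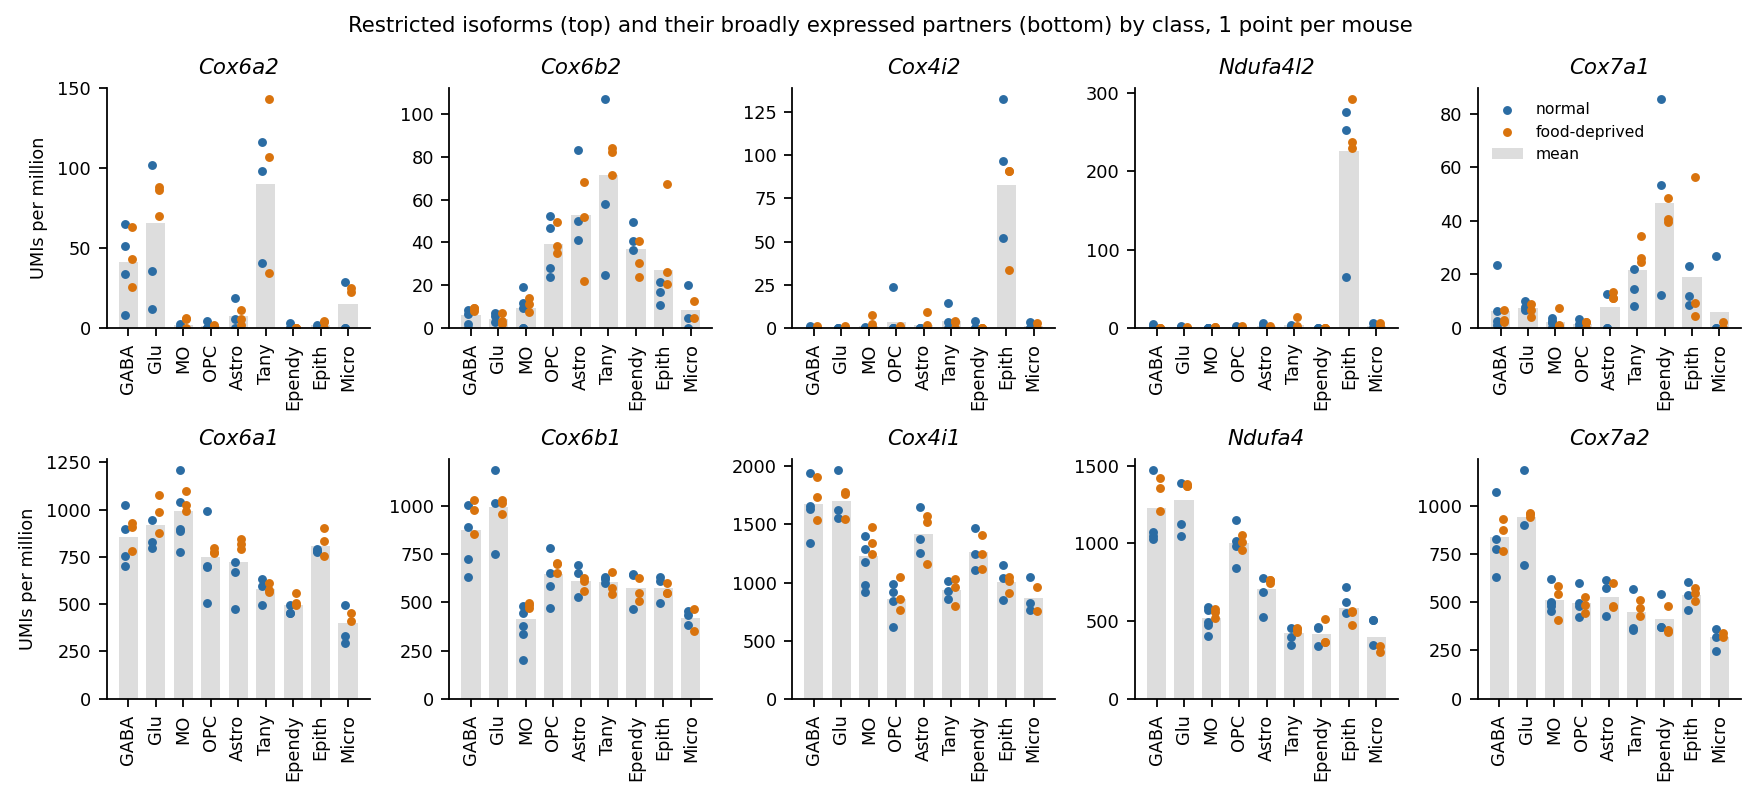
CPM of 5 restricted genes (top) and of their common partners (bottom) in 9 classes; points are mice, coloured by feeding state, and bars are means. Cox6a2 is near 0 in Ependy beside 90.0 CPM in Tany, and Ndufa4l2 and Cox4i2 stand out in Epith.

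Pairs of classes were then compared within mice, by the quasi-likelihood F test of edgeR with the mouse as a block, TMM scaling and Benjamini-Hochberg adjustment over all genes tested. Classes were named by the authors from the same counts, so these calls describe the classes and are not independent evidence that they differ. TMM and plain totals place the whole transcriptome of some classes differently, and the median of all genes is therefore given beside that of the members. For these pairs, shares of all genes called are given with TMM in all libraries only. Counts of members called in other settings have no such share beside them and are not read against one.

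Neurons exceeded astrocytes in 29 of 80 members tested and were lower in 6 (n = 6 mice). Over all genes tested, 30.2% were called higher and 29.3% lower in neurons. The median member was 0.145 higher on the log2 scale and the median of all genes 0.026; 61 of 80 members lay above 0. With plain totals the median of all genes moved to 0.299 and that of members to 0.404, with 52 members called higher and 2 lower. By complex, 16 of 41 members of complex I were higher and 0 lower, 8 of 14 in complex IV were higher and 1 lower, 4 of 16 in complex V were higher and 1 lower, and in complex III 1 of 8 was higher and 3 were lower. The 29 higher members were called higher in 3 settings: edgeR with TMM, edgeR with plain totals, and DESeq2 with its own test and size factors. Only 2 of the 6 lower ones, Cox6b2 and Cox4nb, were called lower in all 3. DESeq2 differs from the other 2 settings in the test as well as in the scaling.

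Among the higher members, Ndufb5, an accessory subunit of complex I, stood at 416 to 586 CPM in neurons and at 193 to 292 CPM in Astro, without overlap (log2 difference 0.81 ± 0.12 SE, adjusted p = 4.135e-06, edgeR). Atp5g1, one of the genes of the c ring of complex V, stood at 426 ± 200 CPM in neurons and 139 ± 94.0 CPM in Astro, higher in 6 of 6 mice (1.43 ± 0.14, edgeR adjusted p = 5.91e-09). Within low-Gapdh libraries this difference was 1.47 and within high-Gapdh libraries 1.31, both called. Cox6a2 was higher by 2.58 ± 0.34 (54.4 against 7.21 CPM, edgeR adjusted p = 6.543e-07), Ndufaf3 by 0.80 ± 0.20 (0.00129) and Ndufab1 by 0.74 ± 0.20 (0.00238). The call of Ndufab1 held in high-Gapdh libraries (0.99) and was lost in low-Gapdh libraries (0.16), and that of Cox7c held in low-Gapdh libraries (0.57) and was lost in high-Gapdh libraries (0.22). In the other direction, Cox6b2 stood at 2.10 to 7.44 CPM in neurons and 22.2 to 83.3 CPM in Astro (-3.44 ± 0.29, edgeR adjusted p = 2.956e-10) and Cox4nb at 44.9 against 101 CPM (-1.46 ± 0.18, 1.512e-07). Uqcr11 (-0.45 ± 0.12, 0.00267), Uqcr10 (-0.37 ± 0.12, 0.0086) and Uqcrfs1 (-0.33 ± 0.14, 0.041), all of complex III, were lower with TMM, and with plain totals Uqcr11 was no longer called (-0.19, adjusted p = 0.182).

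Tanycytes were lower than astrocytes in 39 of 77 members and higher in 4 (n = 6 mice; this pair was chosen after the class levels were seen). Of all genes tested, 19.6% were lower and 19.2% higher in Tany. The median member was -0.380 and the median of all genes 0.008, and with plain totals -0.271 and 0.125, with 31 members lower and 4 higher. The lower calls spread over the complexes, at 15 of 40 in complex I, 6 of 8 in complex III, 7 of 14 in complex IV and 10 of 14 in complex V. Of the lower members 29 were called in all 3 settings (TMM, plain totals and DESeq2). In CPM, 33 members were lower in every mouse and 4 higher in every mouse. The share of all genes lower or higher in every mouse is not given here, so these counts are not read against all genes.

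Cox5a, a subunit of complex IV, stood at 116 to 284 CPM in Tany and 426 to 554 CPM in Astro, without overlap (-1.26 ± 0.16, edgeR adjusted p = 9.889e-07). Atp5o, a subunit of the stalk of complex V, stood at 253 ± 30.5 CPM against 449 ± 23.9 CPM, lower in 6 of 6 mice (-0.94 ± 0.13). Uqcrfs1, the iron-sulfur protein of complex III, stood at 144 against 293 CPM (-1.15 ± 0.16), Atp5c1, the gamma subunit of complex V, at 278 against 493 CPM (-0.96 ± 0.14), and Cox4nb differed by -1.04 ± 0.21. The 4 higher members were Cox6a2 (3.32 ± 0.38, edgeR adjusted p = 3.73e-07), Ndufc2 (0.86 ± 0.13, 2.017e-05), Ndufaf3 (0.70 ± 0.23) and Ndufa1 (0.42 ± 0.14). Only Cox6a2 and Ndufc2 of these were called in all 3 settings.

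Ependymal cells and tanycytes differed in both directions, with 11 of 78 members higher in Ependy and 10 lower (n = 6), against 25.6% and 23.8% of all genes. The median member was 0.042 and the median of all genes -0.026. Ndufb5 was higher in Ependy (473 against 230 CPM, 1.08 ± 0.14, edgeR adjusted p = 4.721e-07), as was Atp5e, the epsilon subunit of complex V, at 541 to 602 CPM against 333 to 388 CPM (0.74 ± 0.12, 8.058e-06). Cox7a1 (0.92 ± 0.33, 0.022), Atp5sl (0.77 ± 0.26) and Cox5a (0.69 ± 0.16) were also higher. Ndufc2 was lower in Ependy in 6 of 6 mice (-1.35 ± 0.11, 5.507e-10), as were Cox6a2 (counts above), Cox6b2 (-0.93 ± 0.27), Ndufa1 (-0.60 ± 0.14) and Ndufs5 (-0.58 ± 0.18). In all 3 settings 8 members were called higher and 3 lower (Cox6a2, Ndufa1 and Ndufc2).

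In the oligodendrocyte lineage the count of calls turned with the scaling. With TMM 41 of 79 members were higher in MO than in OPC and 14 lower (n = 7), against 28.7% and 39.6% of all genes; with plain totals 7 were higher and 44 lower. The median of all genes moved from -0.130 to -0.640 between the 2 scalings and that of members from 0.248 to -0.265, so that the median member stood above the median gene under both. The 7 members called higher in all 3 settings (TMM, plain totals and DESeq2) were Cox4i1, Cox4nb, Cox6a1, Cox6c, Cox7c, Ndufa3 and Ndufs7, and 13 were called lower in all 3. Ndufa4 was among the latter, at 404 to 575 CPM in MO and 842 to 1147 CPM in OPC, without overlap (-0.48 ± 0.08 with TMM, edgeR adjusted p = 3.934e-07, and also called with plain totals). Cox4i1 went the other way in 7 of 7 mice, at 1266 ± 182 CPM against 862 ± 145 CPM (1.04 ± 0.08, 9.927e-16, and 0.52 with plain totals), as did Cox6a1 at 984 against 748 CPM (0.90 ± 0.08, 6.681e-14, and 0.38). Cox4nb (1.80 ± 0.15, 4.861e-15), Ndufs7 (0.89 ± 0.09) and Ndufa3 (0.84 ± 0.08) were higher, and Cox6b2 (-1.15 ± 0.21), Ndufaf4 (-1.13 ± 0.16), Ndufaf1 (-0.84 ± 0.23) and Ndufs3 (-0.44 ± 0.11) lower. Cox4i1 and Cox4nb overlap head to head on opposite strands, at the ends where they start, whereas Drop-seq counts 3′ ends. The counting strand is not given in the sources used here, and whether the 2 genes share reads was not tested. MO markers summed to 101600 ± 10600 CPM in MO and 1727 ± 832 CPM in OPC.

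Glu and GABA neurons differed in 2 of 79 members, with 1 higher and 1 lower in Glu (n = 6), against 9.27% and 8.43% of all genes. Cox5a stood at 717 ± 109 CPM in Glu and 609 ± 68.7 CPM in GABA, higher in 5 of 6 mice (0.23 ± 0.07, edgeR adjusted p = 0.0265), and Cox7a2l at 305 ± 26.3 CPM and 359 ± 24.7 CPM, lower in 6 of 6 (-0.23 ± 0.07, 0.0303). Neither was called by DESeq2. The median member was 0.034 and the median of all genes -0.001. The ranges of both genes overlapped between the classes.

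Between the vascular clusters, 12 of 75 members were higher in Epith2 than in Epith1 and 3 lower (n = 6; chosen after the levels were seen), against 11.1% and 10.7% of all genes. The median member was 0.096 and the median of all genes -0.018. Ndufa4l2 led (0.99 ± 0.15, edgeR adjusted p = 3.739e-06), followed by Cox8a, the common subunit 8 (778 ± 278 against 489 ± 120 CPM, 0.68 ± 0.12, 2.659e-05), Ndufb10 (0.64 ± 0.14), Atp5d (0.58 ± 0.12) and Atp5a1 (0.54 ± 0.12). Its paralog Ndufa4 was lower in 6 of 6 mice, at 473 ± 89.7 CPM against 662 ± 61.7 CPM (-0.46 ± 0.10, 0.00126), with Ndufa8 (-0.41 ± 0.14) and Ndufa7 (-0.35 ± 0.11). Cox4i2 did not pass (0.49 ± 0.23, adjusted p = 0.154).

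**Figure D3:**
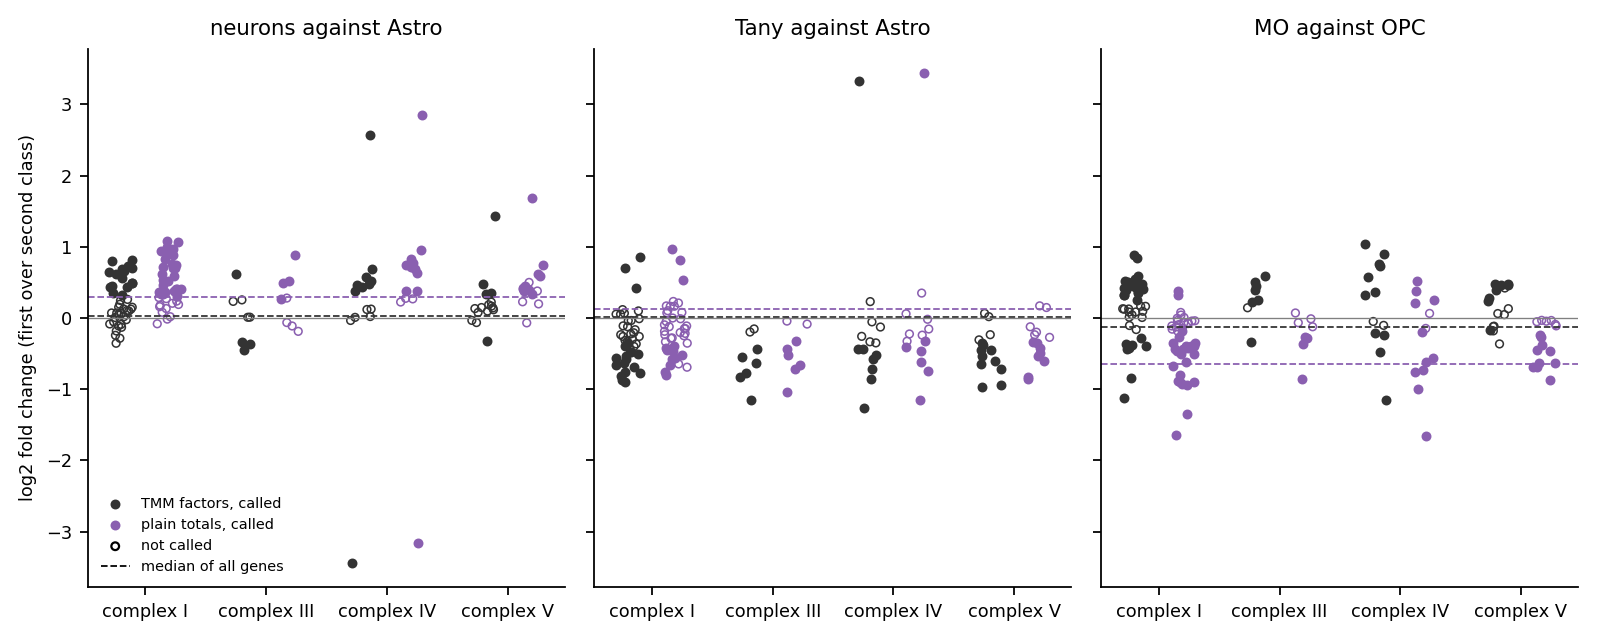
Log2 difference of each member tested, by complex, for neurons against Astro, Tany against Astro and MO against OPC, with TMM and with plain totals; filled points were called, and the dashed line is the median of all genes. Most members lie below the dashed line for Tany against Astro, and the points for MO against OPC shift down together with their dashed line between the scalings.

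Related genes were taken from lists of the mitochondrial and glycolytic pathways around these complexes. In neurons against Astro, a list of mitochondrial carriers, porins and Ckmt1 was higher in 7 of 9 genes tested and lower in 1. The higher genes were Ckmt1, Slc25a4, Slc25a11, Slc25a12, Vdac1, Vdac2 and Vdac3, and the lower was Slc25a5. Enzymes of the tricarboxylic acid cycle were higher in 4 and lower in 5 of 14. Glycolytic genes were higher in 6 and lower in 4 of 15. Of all genes in that pair, 30.2% were higher and 29.3% lower. Uncoupling proteins were higher in 3 of 3. In Tany against Astro, where members were mostly lower, 6 of 14 enzymes of the tricarboxylic acid cycle, 4 of 6 genes of complex II and cytochrome c and 4 of 7 genes of pyruvate entry were lower, and none in these 3 lists was higher, against 19.6% lower and 19.2% higher of all genes. In Ependy against Tany, glycolytic genes were lower in 10 of 14 and higher in 1, and the cycle was higher in 4 of 14, against 25.6% higher and 23.8% lower of all genes. In Glu against GABA, 10 of 15 glycolytic genes and 3 of 13 of the cycle were higher and none lower, against 9.27% and 8.43% of all genes. In Epith2 against Epith1, 6 of 13 of the cycle and 3 of 5 of pyruvate entry were higher and none lower, against 11.1% and 10.7% of all genes. In MO against OPC, 7 of 14 of the cycle and 9 of 15 glycolytic genes were lower and 3 and 2 higher, with TMM, where 39.6% of all genes were lower and 28.7% higher.

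No member passed the test between food-deprived and normal mice. Across 11 classes, 0 of 852 member fits were called by edgeR with Benjamini-Hochberg adjustment in each class, where 0% of all 79526 gene fits were called. At an unadjusted p under 0.05 there were 4 member fits, 0.469% of them, against 3.11% of all gene fits; DESeq2 called 0 and had 3 of 923 at that level. With batch as a block, which is informed by batches 1 and 2 only, 0 of 852 were called (0.0666% of all gene fits). Within low-Gapdh libraries 0 of 622 were called in 8 classes (0.192% of all gene fits), and within high-Gapdh libraries 0 of 520 in 7 classes (0%). In the 13 deposited clusters that could be fitted, 0 of 980 were called (0.00287%). This test was also run on simulated data with the means and library sizes of MO. The dispersion was fixed and not estimated from the data, and changed genes were drawn from those above a minimum mean count. It found 45% of genes changed 2-fold and 99% of those changed 4-fold, so 2-fold changes were often missed in that simulation. Feeding in other classes was not simulated, and the rates are not those of the members.

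The measured differences were small beside their errors. The median absolute log2 difference over the 852 fits was 0.112 with a median SE of 0.228, and the largest was 0.99 for Ndufaf3 in Micro. Cox4i1 in all neurons stood at 1337, 1956, 1598 and 1642 CPM in N2 to N5 and at 1855, 1769 and 1544 CPM in FD1 to FD3, which overlap (0.07 ± 0.15 SE). Over the 11 classes its log2 difference ran from -0.06 to 0.21, that of Atp5b from -0.15 to 0.20, that of Ndufa4 from -0.38 to 0.22 and that of Cox6c from -0.26 to 0.34. Ndufa4 in all neurons stood at 1097, 1434, 1097 and 1035 CPM in N2 to N5 and at 1397, 1379 and 1278 CPM in FD1 to FD3, also overlapping (0.21 ± 0.14). Wider ranges were those of Ndufaf3, from -0.73 to 0.99, Atp5sl, from -0.67 to 0.87, and Atp5g1, from -0.67 to 0.85. Atp5g1 in all neurons stood at 928, 228, 296 and 664.5 CPM in N2 to N5 and at 302, 372 and 690 CPM in FD1 to FD3: in both groups the mice with high-Gapdh libraries only (N2, N5 and FD3) were the high ones.

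Among the restricted isoforms, Cox6a2 differed by 0.22 ± 0.46 in Tany and by 0.64 ± 0.49 in Glu, Cox6b2 by 0.87 ± 0.49 in Epith and by -0.50 ± 0.39 in Ependy, and Ndufa4l2 by 0.27 ± 0.36 in Epith. None of these passed the test, and Ndufc2 in Tany differed by 0.08 ± 0.21. The 4 fits at an unadjusted p under 0.05 were Atp5c1 in Ependy (-0.58), Ndufb4 in Glu (0.46), Atp5e in IMO (-0.71) and Ndufs1 in Tany (0.76). Each was in 1 class only, and their smallest edgeR adjusted p was 0.952.

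Summed over members, the share of UMIs in MO was 2.20, 2.22, 2.34, 2.16 and 2.10% in N1 to N5 and 2.52, 2.35 and 2.23% in FD1 to FD3. The means were 2.20 ± 0.0867% (n = 5) and 2.37 ± 0.145% (n = 3), and the groups overlapped. Within batch 1 the food-deprived mouse was 0.184 percentage points above the normal mouse and within batch 2 it was 0.193 above. In all neurons the means were 3.80 ± 0.350% (n = 4) and 4.02 ± 0.220% (n = 3), and the batches went in opposite directions, -0.125 in batch 1 and 0.636 in batch 2. Micro (1.52 ± 0.155% and 1.40 ± 0.224%) and Ependy (2.38 ± 0.123% and 2.31 ± 0.107%) were lower in the food-deprived mice by less than their spread. Within batches 1 and 2 the difference was -0.095 and -0.111 percentage points in Micro, -0.127 and -0.007 in Ependy and -0.091 and -0.055 in IMO. The group means of IMO went the other way, at 2.75 ± 0.308% in normal (n = 3) and 2.85 ± 0.0698% in food-deprived mice (n = 2). The median member difference per class lay between -0.089 in Ependy, where 27 of 77 members were above 0, and 0.087 in Glu, where 64 of 79 were; the median of all genes lay between -0.008 and 0.014. Members of a class share its mice and move together, so these counts are no replicates.

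Split by kind of library, the shares overlapped differently. In all libraries together, 0 of 11 classes had all food-deprived mice above or below all normal mice, and in low-Gapdh libraries 0 of 8 classes with at least 2 mice per group. In high-Gapdh libraries the food-deprived mice were all above the normal mice in 5 of 7 such classes (all neurons, Glu, MO, Astro and Epith), of which all neurons and Glu share cells. In MO these libraries gave 2.20, 2.22, 2.08 and 2.10% in N1, N2, N4 and N5 and 2.30, 2.40 and 2.23% in FD1 to FD3, and in Astro 2.63 and 2.57% in N4 and N5 and 2.79, 2.76 and 2.77% in FD1 to FD3. The classes come from the same mice, and only batch 2 has high-Gapdh libraries of both feeding states; there FD2 was 0.311 percentage points above N4 in MO. Outside it, batch and feeding state cannot be told apart. No member was called in these libraries (above), and over the 11 classes 0 of 802 fits of genes on the related lists were called by edgeR, with 15 at an unadjusted p under 0.05.

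**Figure D4:**
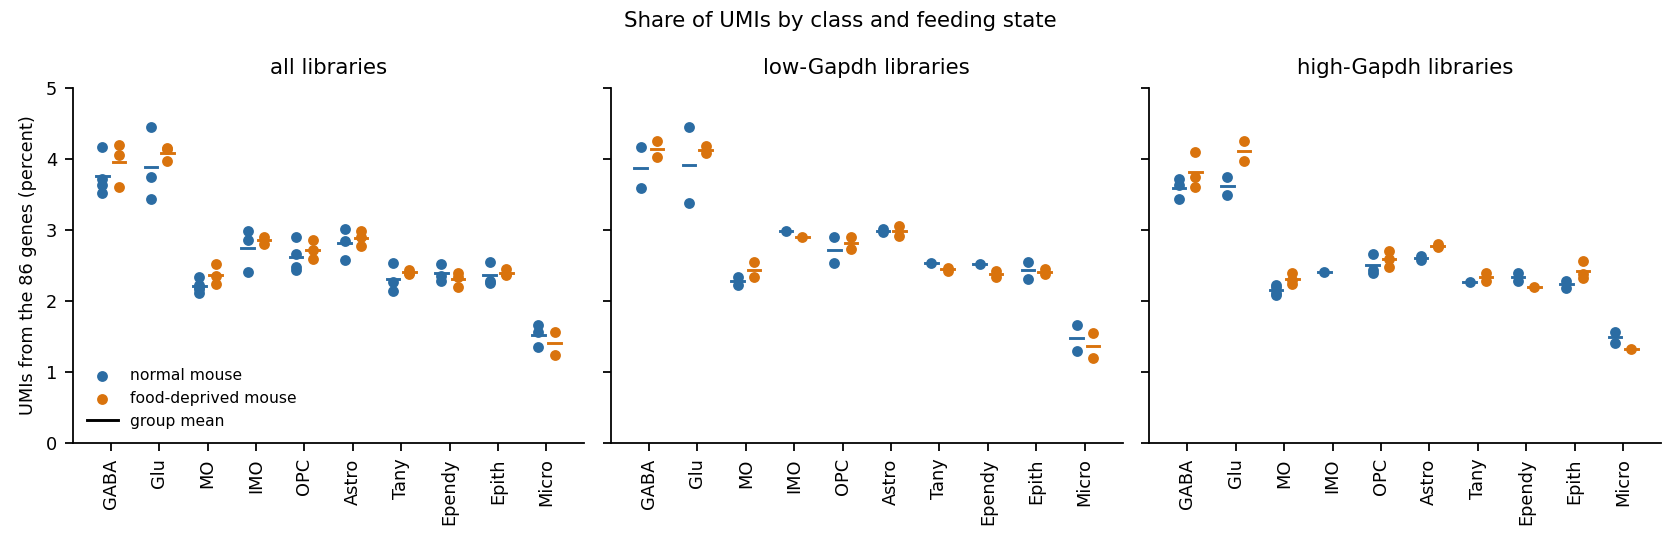
Percent of UMIs from members by class in normal and food-deprived mice, from all libraries, low-Gapdh libraries and high-Gapdh libraries; points are mice and dashes are group means. From all libraries the points of normal and food-deprived mice overlap in each class shown, and from high-Gapdh libraries they do not in Glu, MO, Astro and Epith among classes with at least 2 mice per group.

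Between the kinds of library, 4 of 83 members were higher in the high-Gapdh libraries of the 3 mice that have both (0.727% of all genes) and 0 were lower (0% of all genes). With edgeR and the mouse as a block, these were Atp5g1 (1.39 ± 0.11, adjusted p = 3.441e-04), Cox7c (1.85 ± 0.20, 0.00304), Atp5g2 (2.68 ± 0.34, 0.007) and Ndufab1 (2.34 ± 0.30, 0.00845). The first 3 were known to differ between these libraries when the genes were chosen, so their calls are no independent support. Without FD2 only Atp5g1 was called. The median member was 0.000 and the median of all genes -0.006.

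Cox7c, a small subunit of complex IV, stood at 170 CPM in the low-Gapdh and 397 CPM in the high-Gapdh library of N4, at 196 and 1001 CPM in FD1 and at 164 and 554 CPM in FD2. Atp5g1 stood at 110.0 and 253 CPM in N4, 176 and 485 CPM in FD1 and 160 and 393 CPM in FD2. Atp5g2, which encodes the same c subunit of the ATP synthase, stood at 6.45 and 14.0 CPM in N4, 5.51 and 52.2 CPM in FD1 and 7.74 and 52.2 CPM in FD2. Ndufab1 stood at 36.7 and 77.3 CPM, 31.4 and 216 CPM, and 23.7 and 157 CPM in these mice. In each mouse the high-Gapdh libraries held more of all 4 genes. Over all 17 libraries the kinds did not overlap: Cox7c ran from 130 to 205 CPM in the 9 low and 397 to 1001 CPM in the 8 high, Atp5g1 from 88.9 to 212 and 253 to 594, Atp5g2 from 3.97 to 10.6 and 14.0 to 87.1, and Ndufab1 from 14.1 to 36.7 and 77.3 to 248.

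Their close relatives behaved otherwise. Atp5g3, the third gene of the c ring, stood at 367 and 342 CPM in N4, 447 and 405 CPM in FD1 and 416 and 434 CPM in FD2, higher in the high-Gapdh libraries in 1 of 3 mice, and Cox4i1 was lower in all 3 (1288 and 1227, 1613 and 1471, and 1421 and 1391 CPM). Cox7c was called in 8 of 8 classes fitted. These fits use the same mice, all neurons share cells with GABA and Glu, and Cox7c was known to differ when the genes were chosen. The calls per class are therefore no independent support, and the share of all genes called per class is not given here. Cycs, the gene of cytochrome c, and Brp44l, a pyruvate carrier gene, were also higher. Of the 4 members called, Cox7c and Ndufab1 have a pseudogene that carries their name in the annotation, as do 10 of all members. What sets the libraries apart was not tested.

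**Figure D5:**
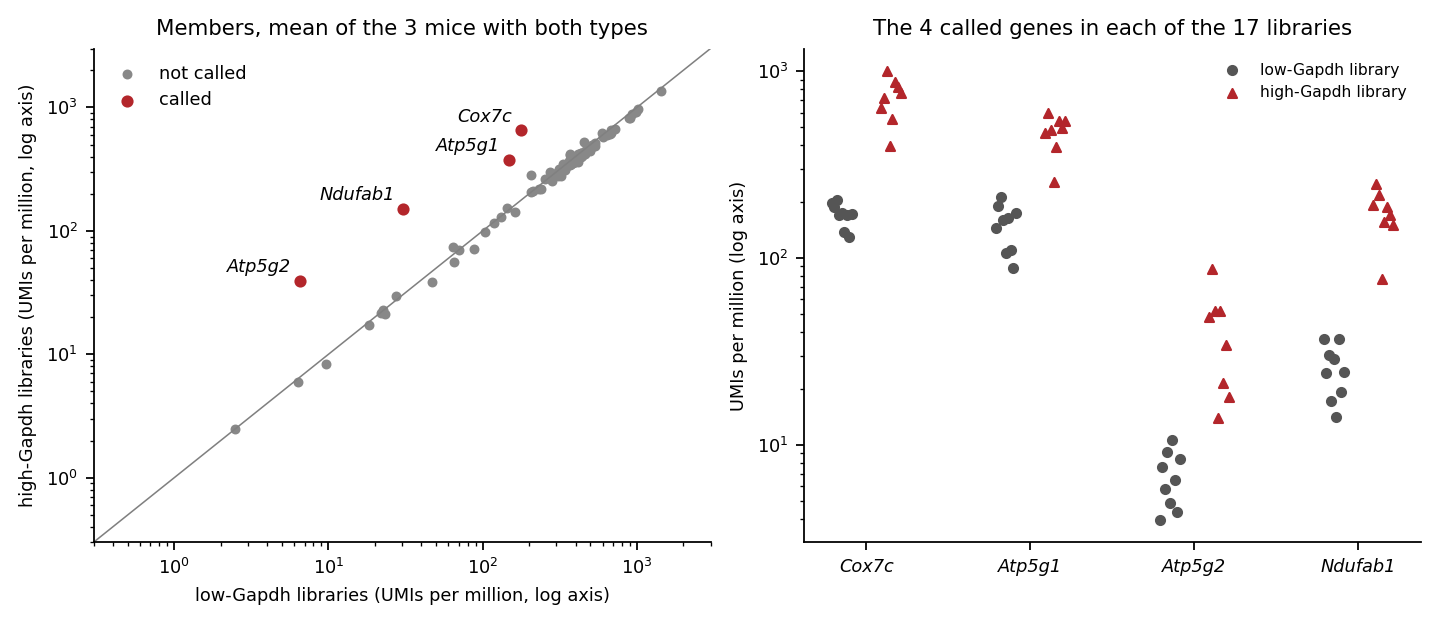
Left, mean CPM of members over 3 mice in low-Gapdh against high-Gapdh libraries on log axes; right, CPM of the 4 called genes in the 17 libraries. The called genes lie above the diagonal, and their low-Gapdh and high-Gapdh libraries do not overlap.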

How the data were processed

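Drop-seq was run on the hypothalamus of 8 mice in 17 libraries. The authors deposited, per library and for all annotated cells together, tables of unnormalized UMI counts of genes by cell, per the file headers and values, and a cluster name per annotated cell, a category with no unit. The genome build was mm9, per the submitters' processing notes, and the aligner, the counting tool and its strand setting were not given in the sources used here. The replicate is the mouse, and the mice are numbered in label order. The p-values for feeding set the difference against the spread between mice, within batches where batch is a block. Those for class pairs and library kinds set the difference within mice against its spread over mice.

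The 14437 annotated cells were joined to libraries by batch, feeding state and barcode. For 161 cells this left several possible libraries, and they were dropped; the counts of the other 14276 equal those of the merged table. No doublets were called here, and 2309 cells named zothers stayed out of the classes. Raw counts were summed per mouse and class. A mouse entered a class with 20 cells or more, and a class was tested with 2 or more mice per group. Totals per mouse ran from 290861 to 12570644 UMIs, and the low totals of N1 and N2 kept them out of most classes.

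Food-deprived and normal mice were compared by edgeR 4.0.16 (R 4.3.3) with TMM, filterByExpr, the two-sided quasi-likelihood F test and Benjamini-Hochberg adjustment over all genes of a class at 0.05. Class pairs and library kinds were fitted with the mouse as a block. CPM are scaled to plain totals and averaged over mice; log2 differences come from the fits and ± after them is the SE. Alternatives were plain totals, DESeq2 1.42.0, no filter on low counts, at least 50 cells, each mouse left out, the kinds of library apart (split at 50 CPM of Gapdh), structural subunits only, and batch as a block. The pairs Tany against Astro and Epith2 against Epith1 were added after the data were seen. The test was also run on simulated data: for Tany against Astro it found 79% of genes changed 2-fold, and 7 of 186 calls were false; for feeding in MO 11 of 155 calls were false.

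Members named in the text are, in each complex, the 3 with the most UMIs; all members of the isoform pairs; Cox7c; the 10 with the largest ratio between class means among those reaching 50 CPM in a class; all members called between feeding states or library kinds; and the 5 called members with the largest difference in each direction of a class pair. Members outside this rule that the text names, such as the 7 shared calls in MO against OPC, were chosen after their values were seen. The members, gene lists and marker sets were chosen with earlier results of these data known. Sequences are from RefSeq for GRCm38.p6, which was also used for overlaps of genes, and no mm9 coordinates were used.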

Additional observations from a re-analysis of the deposited data

Results flagged for a closer look

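In 2 of 52 groups of mice tested for a single mouse that stands far from the others, the gap of 1 mouse exceeded the critical value; chance gives about 1 in 20 such groups. Both concern Cox6a2, the muscle isoform of subunit 6a, in oligodendrocyte classes of N3 (normal replicate 3). In MO it stood at 2.75 CPM in N3 and at 0 in the other 4 of 5 normal mice. Of these, N1 and N2 had 74863 and 79326 UMIs in MO, against 1818499 in N3, and among food-deprived mice FD1 stood at 6.29 CPM and FD2 at 5.44 CPM, above N3. In OPC it stood at 4.12 CPM in N3 and at 0 in the other 3 of 4 normal mice, with FD1 at 1.14 CPM and FD2 at 2.13 CPM. N3 has low-Gapdh libraries only. With all other mice of a group at 0, any value above 0 gives the widest gap. The rate of 1 in 20 therefore does not apply to these 2 groups. Neurons also hold Cox6a2, and the neuron markers were not at 0 in MO or in OPC. The part of RNA from neurons in these values was not tested.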

How the results depend on the processing

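The MO against OPC median of members changed sign between scalings (0.248 with TMM, -0.265 with plain totals), and the feeding median in Micro (-0.022) changed sign without FD2 (0.155) and without N3 (0.056). Of 564 recomputed differences of named members, 0 changed direction, 486 were called in the same direction and 78 kept the direction without a call; 28 of 53 gene and comparison pairs were called in every setting. Feeding gave 0 called members in every setting. Batch as a replicate block, which pairs mice in batches 1 and 2, also gave 0, with 24 of 852 fits at an unadjusted p under 0.05 and a smallest adjusted p of 0.341; it changed no call. Of 106 feeding medians 4 moved by more than the replicate spread: in high-Gapdh libraries Astro (0.122) and Epith (0.107), and, leaving out single mice, Ependy (-0.094 to -0.008) and Micro (-0.208 to 0.155). The share in IMO was 2.40% in high-Gapdh libraries.

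Counts of members called in class pairs moved more. With plain totals, neurons against Astro gave 52 higher and 2 lower, and MO against OPC 7 higher and 44 lower. Without the filter on low counts, lower calls were 5 in MO against OPC, 5 in Ependy against Tany and 1 in Epith2 against Epith1, and Glu against GABA had 2 higher. DESeq2 gave 3 lower in Ependy against Tany, 0 higher and 0 lower in Glu against GABA, 2 higher in Tany against Astro and 1 lower in Epith2 against Epith1. In low-Gapdh libraries, lower calls were 7 in MO against OPC, 0 in Glu against GABA and 4 in Ependy against Tany, which also had 4 higher. In high-Gapdh libraries, higher calls were 16 in neurons against Astro, 25 in MO against OPC, 5 in Ependy against Tany, 0 in Glu against GABA, 1 in Tany against Astro and 6 in Epith2 against Epith1, and lower calls 4 in Ependy against Tany, 0 in Glu against GABA, 15 in Tany against Astro and 0 in Epith2 against Epith1. A kind of library holds fewer mice and cells than all libraries together. The part of this in these counts was not tested, and neither was any other cause.

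Leaving out each mouse in turn gave 3 to 5 lower in neurons against Astro, 4 to 15 lower in MO against OPC (4 without N3, 8 without N2), 6 to 9 lower in Ependy against Tany (6 without FD2), 0 to 2 higher and 0 to 1 lower in Glu against GABA, 2 to 4 higher in Tany against Astro (2 without N3), 1 to 3 lower in Epith2 against Epith1 (1 without FD1 or FD2) and 1 to 5 higher between library kinds (1 without FD2). Feeding could not be fitted in low-Gapdh libraries of IMO, Tany and Ependy, nor in high-Gapdh libraries of these and Micro.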

Other observations

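The cells that the authors left unnamed (zothers, 2309 cells) gave the members 4.07 ± 0.342% of their UMIs (n = 6 mice), above all neurons and GABA in 6 of 6 mice each and above Glu in 5 of 6. They were also above Astro and Micro, whose highest mice stood at 3.01% and 1.65%, while the lowest mouse of zothers stood at 3.55%.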
